A study of Homo sapiens with 12 samples.

Results

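Poly-A RNA of HEK293T cells that received either of 2 microRNA-degrading trigger plasmids was taken as 1 group of 4 libraries and set against the 2 libraries of cells that received the GFP control plasmid. These 6 libraries are all the poly-A libraries among the 12 libraries of the series, and the remaining 6 are of small RNA. HEK293T is a human embryonic kidney line that carries the large T antigen of SV40. The trigger group held 2 libraries of the BCL2L11 trigger and 2 of the TRIM9 trigger, each a stretch of that gene placed in the 3′ untranslated region of a GFP reporter, and the control libraries came from the GFP transfection. All cells were transfected with 2 µg of plasmid and lysed 48 h later, and the labels name PEI and lipofectamine as reagents without saying which sample received which. Both arms share the transfection, and the labels do not describe the GFP control plasmid further. The study's design states 2 biological replicates per trigger. The comparison asks which transcripts differ whenever any trigger insert is present, whatever its sequence.

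Target-directed microRNA degradation starts from an RNA that pairs with a microRNA at its seed and again at its 3′ end. In this state the microRNA is exposed, the Argonaute protein that holds it is marked for destruction by a ZSWIM8 ubiquitin ligase, and the microRNA is lost. The inserts have different partners, so transcripts that stand apart from GFP alike with a BCL2L11 and a TRIM9 insert are of interest as features common to insert-bearing plasmids. The partner microRNAs are printed here, from RefSeq on GRCh38.p14, because their seeds (bases 2 to 8, in capitals) show that the 2 triggers address different targets: miR-221 and miR-222 share a seed, and miR-218 has another.
miR-221-3p: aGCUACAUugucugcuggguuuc
miR-222-3p: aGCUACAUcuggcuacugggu
miR-218-5p: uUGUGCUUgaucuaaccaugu
The first 2 lie on the minus strand of chromosome X, and the third is encoded on chromosomes 4 and 5.

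The level of a gene was the sum of FPKM (fragments per kilobase of transcript, scaled to library size) over its transcripts. Of 67053 genes in the files, 15183 had 2 or more libraries at an FPKM of 1 or above and were tested, and 51870 did not. Libraries are written in the order of their title numbers: 1 to 3 are called library set 1 and 4 to 6 library set 2, with 1 library of each transfection in each set, although the labels state neither a batch nor a pairing. Coverage per unit of FPKM, which tracks depth, was 4.89 to 5.34 in trigger libraries and 4.11 to 4.48 in GFP libraries. GFP library 1 stood apart: it had 83584 transcripts with FPKM above 0, against 99690 to 110534 in the other 5 libraries, and the lowest mitochondrial share of summed FPKM, 5.82%. The part of this in the results was not tested, and values without that library are given for some of the counts. Read totals are not given in the files, so values near an FPKM of 1 carry an unknown counting error. Of 12 HEK293 markers, 10 had an FPKM of at least 1 in every library, and PAX2 and LHX1 were under 1 in all 6. Of the fibroblast, blood and epithelial markers, KRT18 was the most abundant at up to 45.3 FPKM, and KRT8 had 6.98 to 14.2 FPKM. HBA1 and HBA2 had 1.97 to 7.45 FPKM and COL1A1 had 1.27 to 4.02 FPKM. PTPRC, CD3E, HBB, KRT5 and KRT19 were at 0 in all 6 libraries. The summed level of the 9 fibroblast markers was 2.26 to 8.21 FPKM in trigger libraries and 1.57 to 2.099 FPKM in GFP libraries, highest in BCL2L11 library 1, where COL1A2 had 1.56 and COL3A1 1.69 FPKM. The 11 blood markers summed to 5.48 to 13.6 FPKM in trigger libraries and 5.02 to 12.6 FPKM in GFP libraries, and the 8 epithelial markers to 27.9 to 60.7 FPKM in trigger libraries and 34.0 to 49.0 FPKM in GFP libraries.

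BCL2L11 and TRIM9 matched the labels. BCL2L11, the gene of the BH3-only cell death protein BIM, had 11484 and 11275 FPKM in BCL2L11 trigger cells and 3.95 and 6.32 FPKM in TRIM9 trigger cells, against 5.4003 and 6.15 FPKM in GFP cells. TRIM9, a neuronal ubiquitin ligase gene, had 1.21 and 2.30 FPKM in BCL2L11 trigger cells and 5297 and 3948 FPKM in TRIM9 trigger cells, against 1.74 and 2.92 FPKM in GFP cells. Each gene was high only where its own insert was named, and reads of the plasmid and of the endogenous gene cannot be told apart. Taken as 1 group, the trigger cells therefore overlapped GFP cells for both genes.

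No gene passed the test of the pooled triggers against GFP. In limma on log2(FPKM + 1) with Benjamini-Hochberg adjustment, 0 of 15183 genes were higher (0%) and 0 were lower (0%) at a threshold of 0.05, and the lowest adjusted p was 0.9998. At an unadjusted p under 0.05 there were 60 higher genes (0.395%) and 121 lower genes (0.797%). Together these shares are under the proportion of 0.05 that well-calibrated p-values would give on average if no gene differed. The limma fit may thus have been conservative here, though genes are not independent. Its 0 calls do not show that no gene differs. An exact permutation test of 4 against 2 libraries has 15 arrangements and cannot go below p = 0.0667, so no gene could pass it. What follows describes the levels. A gene is said to lie above or below GFP where all 4 trigger libraries lay outside both GFP libraries on that side, which held above for 267 genes (1.76% of those tested) and below for 876 genes (5.77%). These shares are the background against which each gene group is read. The split depended on scaling. With FPKM rescaled by TMM, 661 genes lay above (4.35%) and 436 below (2.87%), with 266 and 432 of them in common with the unscaled counts. The TMM count of a gene group is read against these shares. With 1 library left out the counts over all genes rose too. Of 15183 genes, 1055 lay above and 4279 below without GFP library 1, and 2973 and 2624 without GFP library 2. The median difference over all genes tested was −0.06 on the log2(FPKM + 1) scale and 0.02 after TMM. All differences given here are trigger minus GFP on that scale, with the standard error (SE) of the limma fit, and none of the genes named passed the adjusted threshold.

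Most of the non-overlapping genes differed little. The median absolute difference of the 1143 genes was 0.37, and 24 genes lay above GFP and 16 below it by at least 1 log2 unit, with annotated copies on alternate scaffolds, such as those of NDUFA3, counted separately. In bulk RNA, fewer cells that express a gene and less of its RNA per cell cannot be told apart. Above GFP, ANKRD1 was the clearest case of a common level with both inserts. ANKRD1 encodes a cardiac ankyrin repeat protein and is a widely used target of YAP and SRF signalling (hg38 chr10:90912096-90921087, minus strand). It had 49.0 and 46.1 FPKM in BCL2L11 trigger cells and 43.6 and 52.9 FPKM in TRIM9 trigger cells, against 20.5 and 24.4 FPKM in GFP cells. The 4 trigger libraries lay close together and both GFP libraries were lower than any of them: the mean was 47.9 ± 4.02 FPKM in trigger cells (SD, n = 4) and 22.5 ± 2.82 FPKM in GFP cells (SD, n = 2). The difference was 1.06 (SE 0.21), with 1.14 in set 1 and 0.99 in set 2. Between the triggers ANKRD1 differed by −0.02 (BCL2L11 minus TRIM9, 95% interval −0.69 to 0.66).

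**Figure D1:**
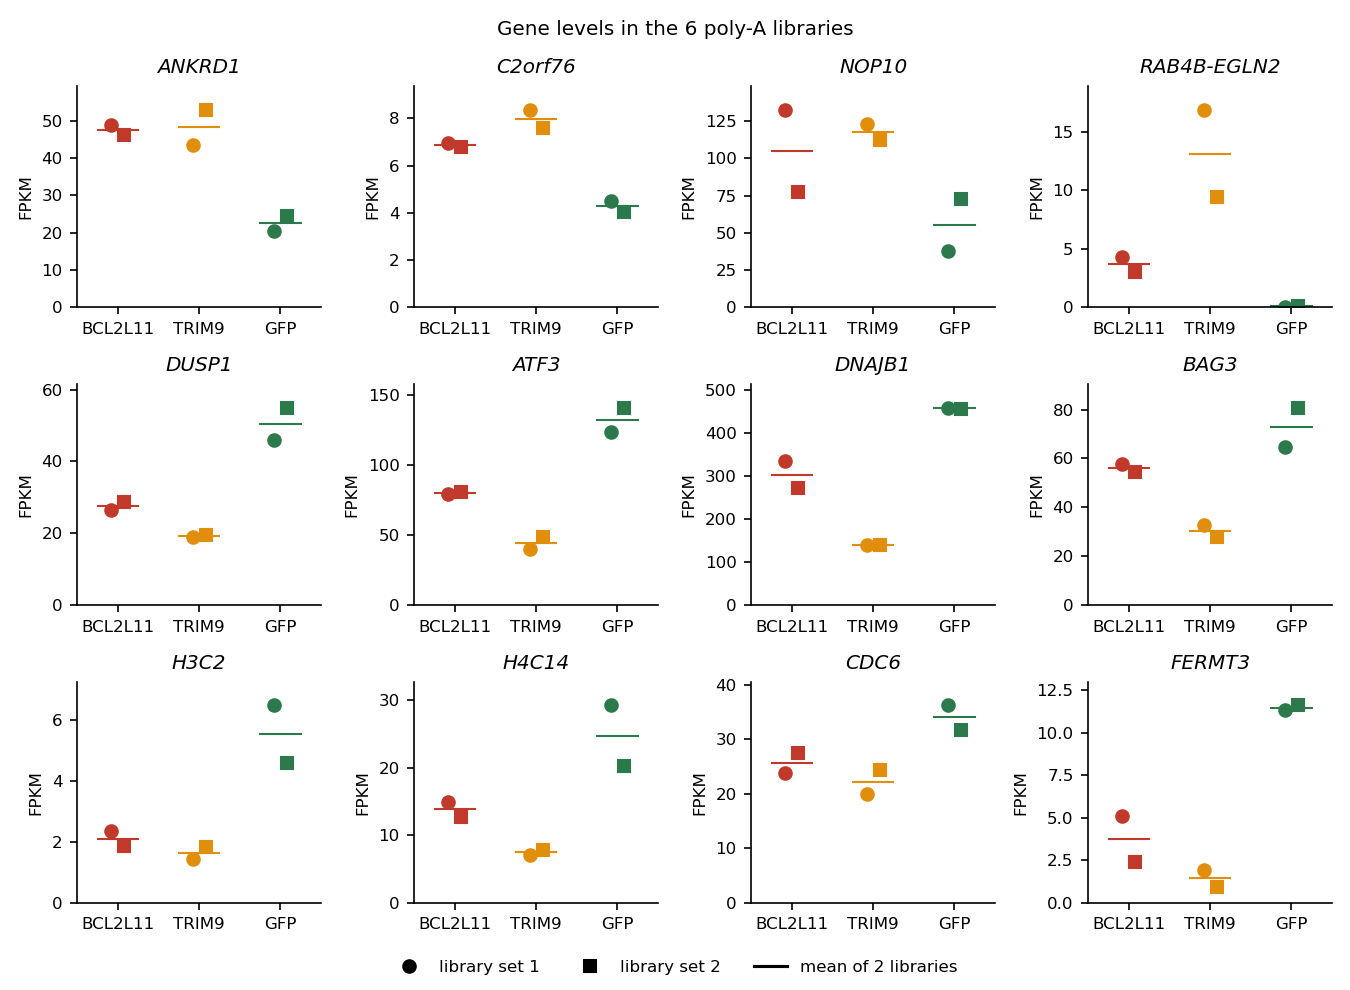
FPKM (linear axis from 0) of 12 genes in the BCL2L11 trigger, TRIM9 trigger and GFP libraries; circles are library set 1, squares library set 2 and bars the mean of 2 libraries. All 4 trigger libraries lie on one side of both GFP libraries in each panel, with both triggers at like levels for ANKRD1 and H3C2 and the TRIM9 trigger farther from GFP for DNAJB1 and ATF3.

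ANKRD1 did not carry the rest of its list. Of 14 tested YAP and SRF targets, 1 lay above GFP (ANKRD1, 7.14% against 1.76% of all genes) and 2 below (14.3% against 5.77%). The median difference was −0.14. AMOTL2, an angiomotin family member that binds YAP, had 3.21 and 6.11 FPKM in BCL2L11 trigger cells and 2.98 and 4.25 FPKM in TRIM9 trigger cells, against 6.76 and 8.36 FPKM in GFP cells. CCN1, a secreted matricellular protein, had 10.2 and 11.2 FPKM in BCL2L11 trigger cells and 7.40 and 7.94 FPKM in TRIM9 trigger cells, against 13.003 and 16.9 FPKM in GFP cells. These 2 genes lay on the opposite side of GFP from ANKRD1.

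Immediate early genes encode transcription factors and phosphatases that are induced within minutes of growth or stress signals and do not need new protein for it. Of 26 tested, 4 lay below GFP (15.4%, against 5.77% of all genes) and none above. The dual-specificity phosphatase gene DUSP1, which shuts off MAP kinases, had 26.5 and 28.8 FPKM in BCL2L11 trigger cells and 18.9 and 19.4 FPKM in TRIM9 trigger cells, against 46.0 and 55.0 FPKM in GFP cells. Its difference was −1.10 (SE 0.25), with −1.01 in set 1 and −1.19 in set 2. The stress-responsive transcription factor gene ATF3 had 79.2 and 80.8 FPKM in BCL2L11 trigger cells and 40.2 and 48.6 FPKM in TRIM9 trigger cells, against 123 and 141 FPKM in GFP cells. For both genes the GFP libraries were the highest and the TRIM9 libraries the lowest, with no overlap between any of the 3 transfections. The ATF3 difference was −1.13 (SE 0.33). FOSL1, an AP-1 subunit, and DUSP5, a nuclear ERK phosphatase, lay below GFP at lower levels: FOSL1 had 2.15 and 1.46 FPKM with the BCL2L11 trigger and 1.54 and 1.33 FPKM with the TRIM9 trigger, against 3.25 and 2.97 FPKM in GFP cells. DUSP5 differed by −0.41 (SE 0.20). The median over the whole list was −0.07, near that of all genes, with 0.12 in set 1 and −0.35 in set 2. With TMM 4 lay below as well, against 2.87% of all genes. When 1 library was left out 4 to 16 lay below GFP. The highest number was without GFP library 1, where 4279 of all 15183 genes lay below.

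Heat shock genes encode chaperones that heat shock factor 1 (HSF1) induces when proteins misfold. Of 26 tested members, 5 lay below GFP (19.2%, against 5.77% of all genes), 0 lay above, and the median difference was −0.13. The HSP40 co-chaperone gene DNAJB1 had 333 and 272 FPKM in BCL2L11 trigger cells and 139 and 139 FPKM in TRIM9 trigger cells, against 458 and 456 FPKM in GFP cells. Its difference was −1.16 (SE 0.41) and of like size in both sets, −1.09 and −1.22. The HSP70 nucleotide exchange factor gene BAG3 had 57.6 and 54.5 FPKM in BCL2L11 trigger cells and 32.9 and 27.8 FPKM in TRIM9 trigger cells, against 64.8 and 80.8 FPKM in GFP cells. Both genes were lowest with the TRIM9 trigger and took a middle place with the BCL2L11 trigger. HSPA4, HSPH1 and HSPD1, named here after their values were seen, lay below GFP by smaller amounts, with differences of −0.32, −0.33 and −0.15. The stress-inducible HSP70 gene HSPA6 differed most between the triggers in this list: it had 267 and 163 FPKM in BCL2L11 trigger cells and 29.6 and 23.5 FPKM in TRIM9 trigger cells, against 274 and 241 FPKM in GFP cells. BCL2L11 library 1 fell inside the GFP range, and the pooled difference of −1.77 (SE 0.93) was made of −0.30 with the BCL2L11 trigger and −3.24 with the TRIM9 trigger. Its closely similar neighbour HSPA7, a transcribed pseudogene, had 18.2 and 16.3 FPKM with the BCL2L11 trigger and 2.47 and 1.94 FPKM with the TRIM9 trigger, against 18.4 and 23.1 FPKM in GFP cells, and reads of the pair may be split between them. HSPA1A and HSPA1B are near-identical copies with 5 annotated loci each, and are uncertain for the same reason. Summed over its loci HSPA1B had 996 and 698 FPKM with the BCL2L11 trigger and 504 and 418 FPKM with the TRIM9 trigger, against 947 and 1095 FPKM in GFP cells. The constitutive chaperone genes HSPA8 and HSP90AB1 overlapped between the groups, with differences of −0.05 and −0.09. With TMM 3 of the 26 lay below GFP and 1 above, against 2.87% and 4.35% of all genes. When 1 library was left out 5 to 11 lay below, 11 without GFP library 2 and 8 without GFP library 1 or BCL2L11 library 1. Of all 15183 genes, 2624, 4279 and 1227 lay below in these 3 settings.

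Promoters of these genes were searched for heat shock elements, since HSF1 binds inverted GAA units. Windows of 30 bases are shown for DNAJB1, HSPA6, HSPA1B and HSPA8, which were chosen by hand. The motif was GAANNTTC or TTCNNGAA, each its own reverse complement so that both strands were covered, in RefSeq promoters of 250 bases before to 50 after a gene's start on GRCh38.p14. Capitals mark the GAA and TTC units.
DNAJB1 (chr19:14518456-14518485, minus strand): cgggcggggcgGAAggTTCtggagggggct
DNAJB1 (chr19:14518426-14518455, minus strand): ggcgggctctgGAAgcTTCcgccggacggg
HSPA6 (chr1:161524458-161524487, plus strand): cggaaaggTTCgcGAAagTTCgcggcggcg
HSPA1B (chr6:31827622-31827651, plus strand): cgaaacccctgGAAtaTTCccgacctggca
HSPA8 (chr11:123062170-123062199, minus strand): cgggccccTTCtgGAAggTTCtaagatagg
The elements began 77, 47, 74, 105 and 55 bases before the annotated starts in the order shown. HSPA6 and HSPA8 each carried a run of 3 units. HSPA8 held another such run 230 bases before its start, and HSPA6 a further element 180 bases before its own. The pooled difference of HSPA6 was the largest of the list, made of −0.30 with the BCL2L11 trigger and −3.24 with the TRIM9 trigger. That of HSPA8 was near 0. The part of these elements in the differences was not tested. Of 35116 promoter windows 13.5% held the motif, as did 16 of the 23 matched heat shock members in at least 1 window, against 16.2% of all genes. Of the 5 members below GFP, 2 held it (DNAJB1 and HSPD1). A match describes letters and does not show binding.

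**Figure D2:**
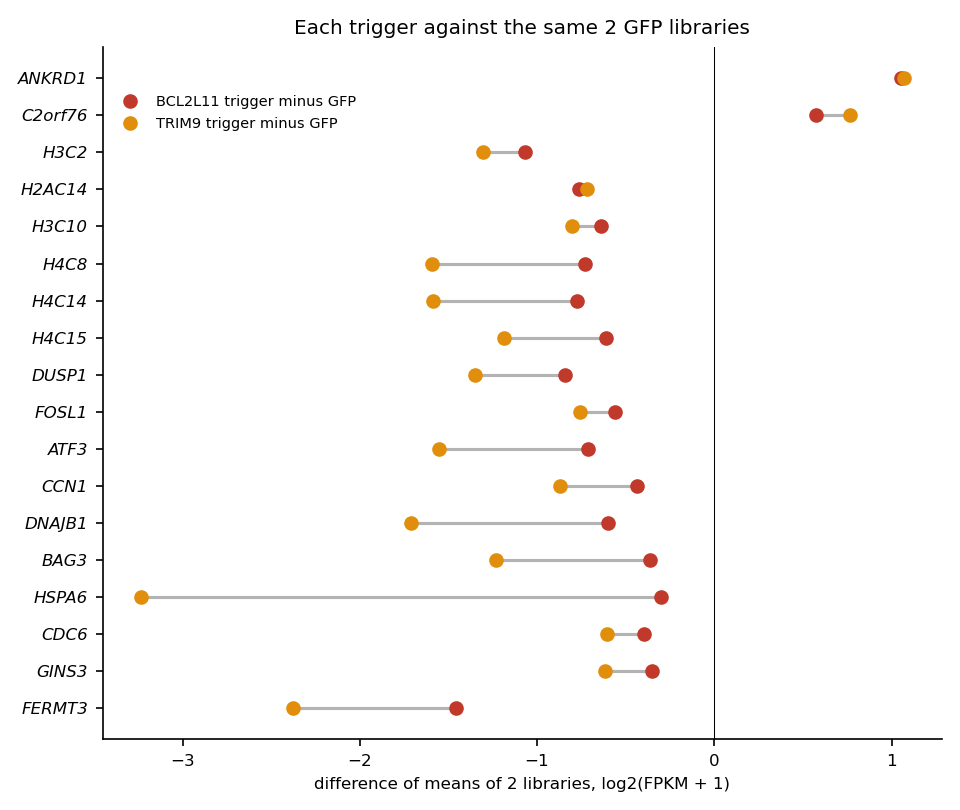
Difference of the means of 2 trigger and 2 GFP libraries on the log2(FPKM + 1) scale for 18 genes, red for the BCL2L11 trigger and orange for the TRIM9 trigger, which share the same GFP libraries. ANKRD1, H3C2 and H2AC14 have both points close together, and for HSPA6 they lie at −0.30 and −3.24.

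How alike the triggers were differed between genes. Against the same GFP libraries, H3C2 stood at −1.07 with the BCL2L11 trigger and −1.31 with the TRIM9 trigger, DUSP1 at −0.84 and −1.35, ATF3 at −0.71 and −1.55, and DNAJB1 at −0.60 and −1.71. The direct comparison of the triggers put DNAJB1 at 1.11 (BCL2L11 minus TRIM9, 95% interval 0.35 to 1.87), BAG3 at 0.87 (0.18 to 1.56), ATF3 at 0.84 (0.15 to 1.53) and HSPA6 at 2.94 (2.096 to 3.77). With limma and Benjamini-Hochberg adjustment over all genes only BCL2L11 and TRIM9 passed in that comparison, which is 2 of 15183 genes (0.0132%), and the adjusted p of HSPA6 was 0.214. Intervals are given per gene and are not adjusted for the number of genes.

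Replication-dependent histone genes supply histones during S phase, and their mRNAs end in a stem-loop in place of a poly-A tail, so a poly-A library holds only the minor tailed form or carry-over. They were the list with the most members below GFP: 14 of 35 tested (40.0%, against 5.77% of all genes), 0 above, with 27 further members of the 62 in the files under the filter. The median difference was −0.58, with −0.50 in set 1 and −0.73 in set 2, and 27 of the 35 members were lower in both sets, against 35.3% of all genes tested. H3C2 (hg38 chr6:26031589-26032099, minus strand), which encodes a histone H3.1, had 2.34 and 1.86 FPKM in BCL2L11 trigger cells and 1.43 and 1.82 FPKM in TRIM9 trigger cells, against 6.48 and 4.61 FPKM in GFP cells. Its difference was −1.19 (SE 0.25), and the highest trigger library was well under the lower GFP library. H4C14, which encodes histone H4, had 14.97 and 12.8 FPKM in BCL2L11 trigger cells and 7.12 and 7.80 FPKM in TRIM9 trigger cells, against 29.2 and 20.3 FPKM in GFP cells. H4C8 had 2.05 and 1.98 FPKM with the BCL2L11 trigger and 0.64 and 0.68 FPKM with the TRIM9 trigger, against 3.87 and 4.15 FPKM in GFP cells. H2AC14 stayed near the filter, at 0.27 and 0.37 FPKM with the BCL2L11 trigger and 0.19 and 0.55 FPKM with the TRIM9 trigger, against 1.04 and 1.43 FPKM in GFP cells. Both triggers were lower than GFP for these 4 genes, and the TRIM9 libraries were the lower ones for H4C8 and H4C14. Not every member did this: H4C11 had 6.13 and 4.12 FPKM with the BCL2L11 trigger and 5.12 and 2.92 FPKM with the TRIM9 trigger, against 1.17 and 4.58 FPKM in GFP cells, which overlapped. H4C14 overlaps H3C14 in the annotation and H4C15 overlaps H3C15, and the pairs H3C14 and H3C15, and H2AC18 and H2AC19, are near-identical copies with almost equal values, so these members are not independent. The median over members was −0.34 for the BCL2L11 trigger and −0.77 for the TRIM9 trigger. With TMM 9 of 35 lay below GFP, against 2.87% of all genes, with a median of −0.51. When 1 library was left out 14 to 20 lay below. The highest number was without GFP library 2, where 2624 of all 15183 genes lay below.

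Abundant RNAs that lack a poly-A tail were followed as a sign of RNA without a tail in the libraries. They did not move together, so they give no single measure of it. Of 16 in the files 6 were tested, and 0 lay outside GFP in either direction. RN7SK, the scaffold RNA of the 7SK complex, had 182 and 41.98 FPKM in BCL2L11 trigger cells and 16.6 and 7.11 FPKM in TRIM9 trigger cells, against 202 and 70.0 FPKM in GFP cells. RPPH1, the RNA of ribonuclease P, had 15.5 and 6.17 FPKM in BCL2L11 trigger cells and 3.71 and 1.68 FPKM in TRIM9 trigger cells, against 10.0015 and 12.96 FPKM in GFP cells. RN7SL2, a signal recognition particle RNA, had 416 and 24.05 FPKM in BCL2L11 trigger cells and 92.7 and 27.1 FPKM in TRIM9 trigger cells, against 20.2 and 43.2 FPKM in GFP cells. RN7SK and RPPH1 were lowest with the TRIM9 trigger, as several histone genes were, whereas RN7SL2 was not. The part of carry-over in the histone values was not tested.

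Of 30 tested genes of S phase entry and replication licensing, 8 lay below GFP (26.7%, against 5.77% of all genes) and 0 above, 7 had a positive difference, and the median was −0.17, with −0.13 in set 1 and −0.23 in set 2. CDC6, which loads the replicative helicase, had 23.8 and 27.5 FPKM in BCL2L11 trigger cells and 19.9 and 24.3 FPKM in TRIM9 trigger cells, against 36.2 and 31.8 FPKM in GFP cells. GINS3, a helicase cofactor, had 16.3 and 16.5 FPKM in BCL2L11 trigger cells and 13.4 and 13.7 FPKM in TRIM9 trigger cells, against 21.6 and 20.8 FPKM in GFP cells. For MCM6, a helicase subunit, the values were 44.0 and 48.4 FPKM in BCL2L11 trigger cells and 42.5 and 50.3 FPKM in TRIM9 trigger cells, against 63.1 and 60.0 FPKM in GFP cells. The differences were −0.50 (SE 0.22), −0.48 (SE 0.21) and −0.41 (SE 0.21), and MCM3, ORC1, MCM2, E2F2 and PCNA, all below GFP too, had −0.34 to −0.19. The groups were separate for these 8 genes but by less than 1 log2 unit. With TMM 4 of 30 lay below, against 2.87% of all genes. When 1 library was left out 8 to 14 did. The highest number was without GFP library 1, where 4279 of all 15183 genes lay below. Of 25 mitosis genes, 1 lay below GFP (4%, against 5.77% of all genes). It was TPX2, a spindle assembly factor, and the median of the mitosis genes was −0.08.

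**Figure D3:**
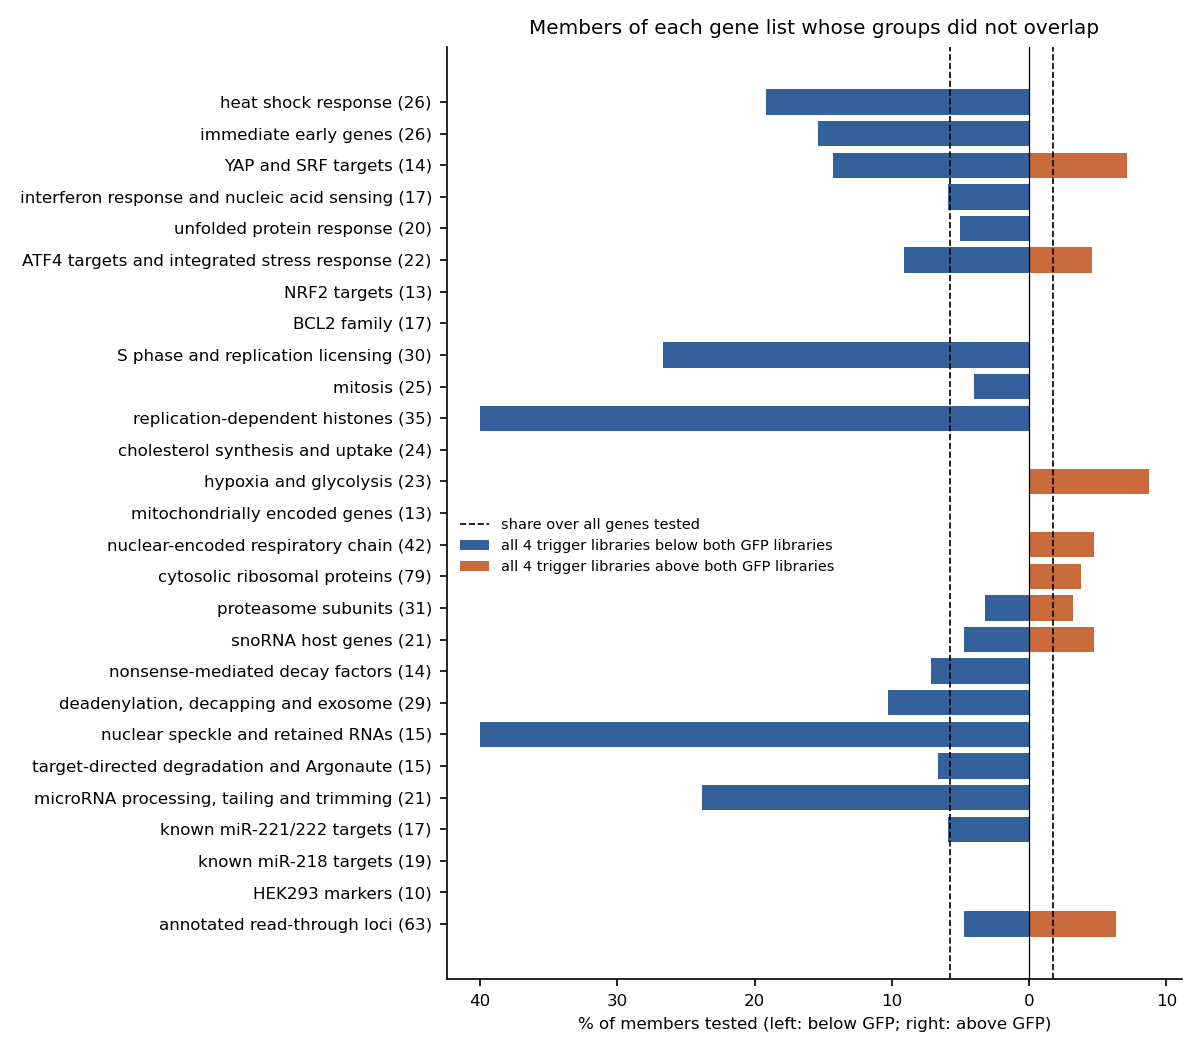
Share of tested members of each gene list (number tested in brackets, lists of at least 10 members described here) whose 4 trigger libraries all lay below both GFP libraries (blue, left) or above them (orange, right); dashed lines mark 5.77% below and 1.76% above over all genes tested. Histone and nuclear speckle genes reach 40.0% below, and the highest share above is 8.70%, for hypoxia and glycolysis genes.

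Splicing factors and RNAs of nuclear speckles had the same share below GFP as the histone genes, 6 of 15 (40.0%, against 5.77% of all genes). With TMM 1 of 15 lay below, against 2.87% of all genes. When 1 library was left out 6 to 11 did. The highest number was again without GFP library 1, where 4279 of all 15183 genes lay below. TRA2A, a splicing activator, had 72.3 and 70.0 FPKM in BCL2L11 trigger cells and 62.1 and 71.3 FPKM in TRIM9 trigger cells, against 114 and 83.3 FPKM in GFP cells. CLK1, a kinase of SR proteins, had 29.7 and 42.7 FPKM in BCL2L11 trigger cells and 23.4 and 37.9 FPKM in TRIM9 trigger cells, against 45.3 and 52.4 FPKM in GFP cells. The list's median was −0.42 in set 1 and −0.17 in set 2, so set 1 held most of it.

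The machinery that makes, trims and destroys microRNAs was followed because the inserts act through it. Among 21 genes of microRNA processing, tailing and trimming, 5 lay below GFP (23.8%, against 5.77% of all genes) and 0 above (against 1.76%). Their median was −0.15. With TMM 0 lay below, against 2.87% of all genes. When 1 library was left out 5 to 13 did. The 13 were without GFP library 1, where 4279 of all 15183 genes lay below. TSNAX, a subunit of the C3PO nuclease, had 30.5 and 42.6 FPKM in BCL2L11 trigger cells and 28.7 and 42.3 FPKM in TRIM9 trigger cells, against 51.4 and 45.3 FPKM in GFP cells. DGCR8, the partner of Drosha, had 22.7 and 18.5 FPKM in BCL2L11 trigger cells and 23.0 and 18.8 FPKM in TRIM9 trigger cells, against 26.1 and 24.1 FPKM in GFP cells. PRKRA, SND1 and PARN were the others below GFP, by −0.36 to −0.09. Of 15 genes of target-directed degradation and Argonaute function, 1 lay below GFP (6.67%), near the 5.77% of all genes. It was CUL3, a cullin scaffold of the ligase. CUL3 had 13.02 and 17.4 FPKM with the BCL2L11 trigger and 10.5 and 18.7 FPKM with the TRIM9 trigger, against 20.2 and 19.4 FPKM in GFP cells. AGO2, the catalytic Argonaute, overlapped, at 3.11 and 7.74 FPKM in BCL2L11 trigger cells and 3.75 and 6.54 FPKM in TRIM9 trigger cells, against 5.04 and 9.49 FPKM in GFP cells. Of 17 known miR-221/222 targets 1 lay below GFP (PPP2R2A, 5.88%, near the share of all genes), with a median of 0.01. Of 19 known miR-218 targets 0 lay outside GFP, with a median of −0.07. The inserts have different partners, so these counts over all 4 trigger libraries cannot show a response to 1 trigger alone. With the BCL2L11 and TRIM9 triggers the medians were −0.06 and 0.01 for miR-221/222 targets. For miR-218 targets they were −0.11 and −0.006, against −0.08 and −0.04 over all genes tested. The miR-221/222 host MIR222HG had 15.4 and 16.98 FPKM with the BCL2L11 trigger and 20.7 and 28.5 FPKM with the TRIM9 trigger, against 17.01 and 15.7 FPKM in GFP cells, which overlapped.

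Above GFP, several of the named genes encode short, abundant transcripts, and their differences were larger in set 1 than in set 2. NOP10, a core protein of H/ACA snoRNPs, had 133 and 77.1 FPKM in BCL2L11 trigger cells and 123 and 113 FPKM in TRIM9 trigger cells, against 38.05 and 72.7 FPKM in GFP cells, a difference of 1.72 in set 1 and 0.36 in set 2. NDUFA1, a complex I subunit, had 318 and 125 FPKM in BCL2L11 trigger cells and 204 and 132 FPKM in TRIM9 trigger cells, against 88.2 and 102 FPKM in GFP cells, a difference of 1.52 in set 1 and 0.33 in set 2. CYBA, TSPO and RPL41 had the same order, with 2.09, 1.72 and 1.27 in set 1 and 0.32, 0.08 and 0.34 in set 2. GFP library 1 was the lowest of the 6 for these 5 genes. C2orf76, a gene of unknown role, was more even between the sets, with 6.96 and 6.77 FPKM in BCL2L11 trigger cells and 8.36 and 7.58 FPKM in TRIM9 trigger cells, against 4.52 and 4.04 FPKM in GFP cells. Of 79 cytosolic ribosomal protein genes, 3 lay above GFP (3.8%, against 1.76% of all genes; RPL41 and RPL23A are among them), 61 had a positive difference and the median was 0.14. Without GFP library 1, 47 of the 79 lay above the other one, as did 1055 of all 15183 genes. Without any other single library 3 to 8 did. The 8 were without GFP library 2 or BCL2L11 library 2, where 2973 and 653 of all genes lay above. Of 42 nuclear-encoded respiratory chain genes, 2 lay above (NDUFA1 and UQCRH, 4.76% against 1.76% of all genes). Their median was 0.27 in set 1 and −0.02 in set 2 over the 42 genes. Of the 13 mitochondrially encoded genes 0 lay outside GFP, with a median of 0.50 in set 1 and 0.07 in set 2.

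**Figure D4:**
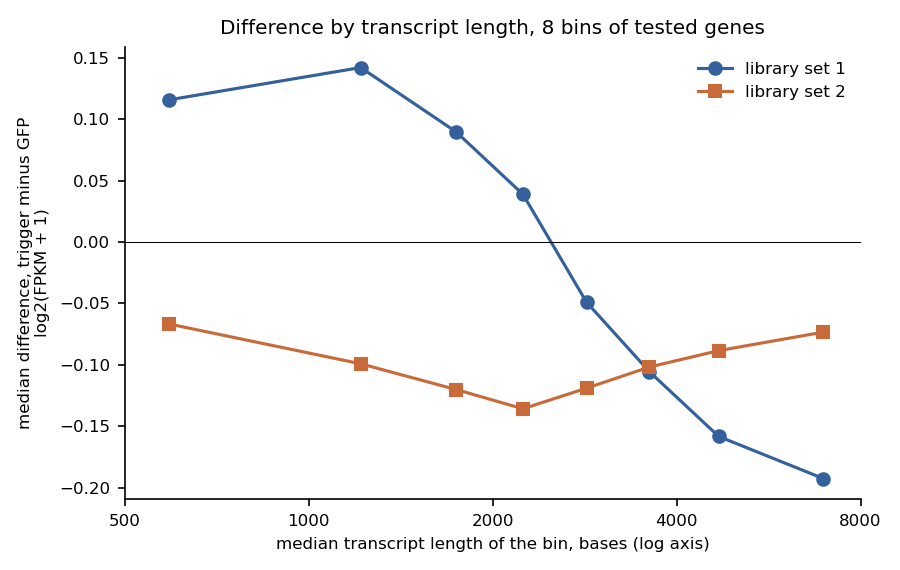
Median difference of trigger minus GFP, log2(FPKM + 1), in 8 bins of tested genes by transcript length (log axis), for library set 1 (blue circles) and library set 2 (orange squares). Set 1 is at 0.12 in the shortest bin and −0.19 in the longest, and set 2 stays between −0.14 and −0.07.

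Transcript length moved with this set difference. In 8 bins of 1896 to 1900 genes each by the FPKM-weighted transcript length, the median difference in set 1 was 0.12 in the bin of shortest transcripts and −0.19 in that of the longest, whereas in set 2 it was −0.07 in both. Across genes the Spearman correlation of length with the difference was −0.24 in set 1 and 0.02 in set 2. Genes are not independent replicates, and each set has a single GFP library. Of the 1898 genes in the shortest bin 77 lay above GFP and 61 below, and of the 1896 in the fourth bin 32 and 168. Of the 1898 in the longest bin 11 lay above and 64 below. The number below was thus highest in the fourth bin and did not rise steadily with length. Over all genes tested 1.76% lay above and 5.77% below. The part of RNA quality or library preparation in this was not tested.

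**Figure D5:**
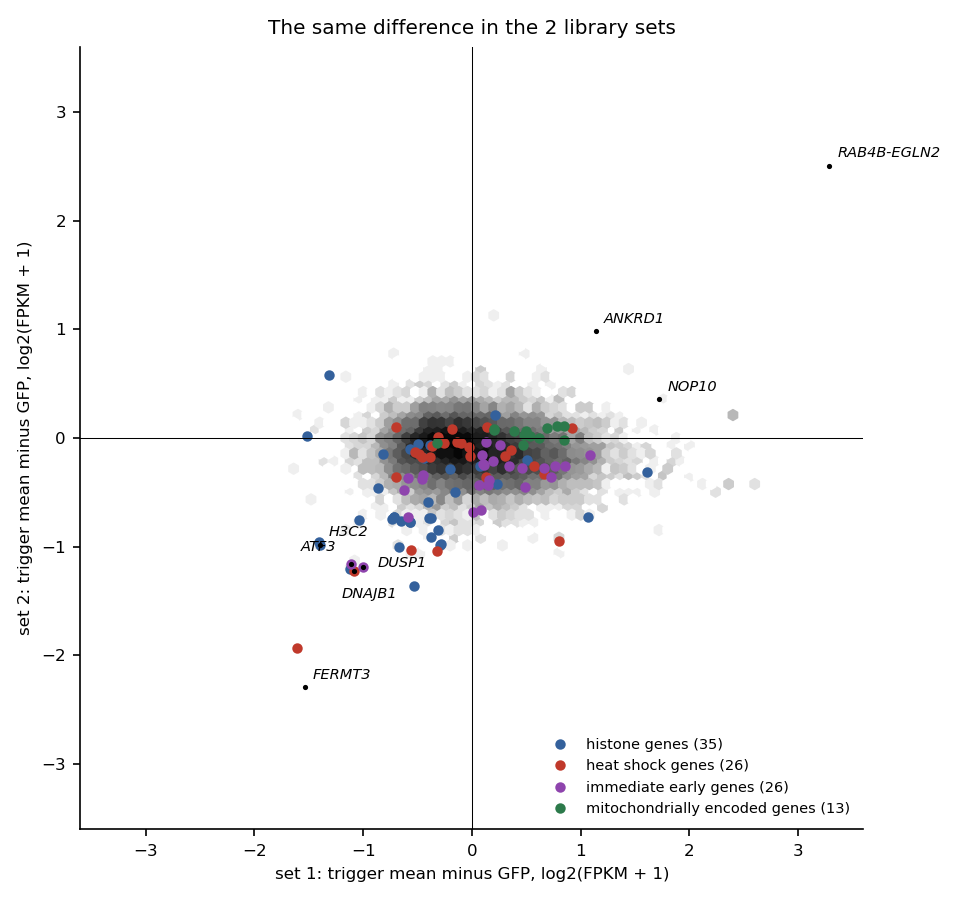
Difference of trigger mean minus GFP, log2(FPKM + 1), in library set 1 (x) and library set 2 (y) for the tested genes (grey, darker for more genes on a log scale), with 4 gene lists coloured; 3 genes lie outside the plotted range. Over all tested genes the correlation is −0.05; the labelled genes were chosen for groups that do not overlap, which fixes a like sign in both sets.

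The sets share no library, so each gives its own difference. Across the 15183 genes these correlated at −0.05 (Pearson) and −0.12 (Spearman), and 47.3% of genes had the same sign in both. A gene whose 4 trigger libraries all lie on one side of GFP must have the same sign in both sets, so the like signs of the genes named here follow from how they were chosen. For description, set 1 and set 2 gave −1.39 and −0.98 for H3C2, −1.11 and −1.16 for ATF3, −1.54 and −2.29 for FERMT3 and 0.65 and 0.69 for C2orf76.

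Several other genes far from GFP were of low level or lay in overlapping loci. FERMT3, which encodes the integrin activator kindlin-3, had 5.09 and 2.39 FPKM in BCL2L11 trigger cells and 1.96 and 0.96 FPKM in TRIM9 trigger cells, against 11.3 and 11.6 FPKM in GFP cells, a difference of −1.92 (SE 0.41). Its neighbour TRPT1, which overlaps it in the annotation, had 12.5 and 9.49 FPKM in BCL2L11 trigger cells and 15.5 and 9.15 FPKM in TRIM9 trigger cells, against 11.6 and 9.13 FPKM in GFP cells, and so did not share it. LPXN, a focal adhesion protein gene, and DCUN1D5, which promotes cullin neddylation, lay below GFP by −0.96 (SE 0.25) and −0.89 (SE 0.24). DCUN1D5 was the more abundant of the pair, at 17.5 and 12.2 FPKM in BCL2L11 trigger cells and 13.9 and 16.2 FPKM in TRIM9 trigger cells, against 33.0 and 24.4 FPKM in GFP cells. The RNA-binding zinc finger gene ZC3H14 had 7.72 and 11.9 FPKM in BCL2L11 trigger cells and 6.93 and 12.1 FPKM in TRIM9 trigger cells, against 23.5 and 15.6 FPKM in GFP cells. GEMIN7-AS1, FAM220A, the pseudogene ISCA1P4, CCDC57 and H4C15 also lay below GFP, with −1.64, −1.07, −1.16, −1.69 and −0.90. CCDC57 ranged widely within groups, at 10.9 and 88.0 FPKM in BCL2L11 trigger cells and 62.8 and 66.3 FPKM in TRIM9 trigger cells, against 99.0 and 221 FPKM in GFP cells.

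The largest positive pooled difference of a gene above GFP was that of RAB4B-EGLN2, an annotated read-through of 2 neighbouring genes on chromosome 19, at 2.90 (SE 0.55). It had 4.31 and 3.01 FPKM in BCL2L11 trigger cells and 16.9 and 9.38 FPKM in TRIM9 trigger cells, while it was listed at 0 and 0.13 FPKM in GFP cells. EGLN2, which overlaps it, had 30.1 and 12.04 FPKM in BCL2L11 trigger cells and 10.01 and 4.55 FPKM in TRIM9 trigger cells, against 17.9 and 16.1 FPKM in GFP cells, and RAB4B stayed between 0.46 and 1.85 FPKM in all 6 libraries. StringTie divides reads among overlapping transcripts, so the values of this locus are uncertain. PTGES3L-AARSD1, a second read-through, had 0.94 and 8.65 FPKM in BCL2L11 trigger cells and 12.95 and 3.85 FPKM in TRIM9 trigger cells, against 0.86 and 0.29 FPKM in GFP cells. Of 63 tested read-through loci, 4 lay above GFP (6.35%, against 1.76% of all genes) and 3 below (4.76%), with a median of 0.08. GDF1, a TGF-beta family gene that shares its transcript with CERS1, FBXL8, an F-box gene, and the small RNA loci MIR6768, MIR4740, MIR6859-1 and SNORA5A were named by the rule as above GFP, with 1.33, 1.02, 0.82, 1.25, 1.49 and 0.67, and reads of the last 4 cannot be told apart from their host transcripts. The pseudogenes RPL39P3 and RPL22P1, with 1.05 and 0.82, may take reads of their parent genes.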

How the data were processed

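The tools listed in the submitters' processing notes are StringTie 2.1.3, STAR, DESeq2 1.20.0 and cutadapt 3.4, on hg38; their settings and the annotation release are not given in the sources used here. Per the file headers, the deposited StringTie tables give FPKM and a coverage signal for each of 250719 transcripts per library; the authors' comparison tables were not used. FPKM was summed per gene. The log2(FPKM + 1) values of 15183 genes were fitted in limma 3.58.1 (R 4.3.3, trend, 4 trigger against 2 GFP libraries, two-sided, Benjamini-Hochberg). Of the genes tested, 994 lie off the assembled chromosomes, mostly further copies. The genes named are BCL2L11 and TRIM9; the 12 of lowest p per direction among non-overlapping genes; up to 8 per direction of largest difference at a mean FPKM of at least 10; and up to 4 members of lowest p in a list. Some genes this rule names are not reported here. Genes outside it were chosen after their values were seen. The members and lists were chosen with earlier results of these data known. Alternatives were TMM, pseudocount 0.1, no filter or one at an FPKM of 5, group means, no trend, a replicate block, each library left out, assembled chromosomes and each trigger alone. FPKM is a share of the library, so abundant inserts or short RNAs shift all other values.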

Additional observations from a re-analysis of the deposited data

Results flagged for a closer look

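The 2 trigger genes differed between the triggers that were pooled here, by the limma test of that difference. BCL2L11 stood at 10.88 (BCL2L11 minus TRIM9, log2(FPKM + 1)) and TRIM9 at −10.73, which are the inserts themselves. Among 81 named genes, 0 had a trigger library that stood apart from the other 3 by Dixon's ratio. With 4 values from 2 inserts this check has little reach. RN7SL2 was not flagged, at 416 and 24.05 FPKM with the BCL2L11 trigger and 92.7 and 27.1 FPKM with the TRIM9 trigger. The 0 therefore does not show that no single library decides a difference.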

How the results depend on the processing

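The 0 higher and 0 lower genes remained 0 and 0 under TMM, pseudocount 0.1, both other filters, no trend, assembled chromosomes and each library left out. With 3 group means 2 genes were higher (BCL2L11 and TRIM9; 1 of them in a list), with or without the replicate block. The BCL2L11 trigger alone gave 1 higher gene (1 in a list), and the TRIM9 trigger alone 3 higher and 2 lower (2 in lists). The replicate block alone gave 0 and 0 calls and 3 genes differing between the triggers, against 2 without it; the sets' deviations correlated at 0.49 to 0.83 between groups, but the labels do not say that title numbers pair samples. Genes above and below GFP, 267 and 876, were 661 and 436 with TMM, 121 and 536 with the FPKM filter of 5, 966 and 1963 without a filter, 674 and 1863 for the BCL2L11 trigger alone, 1011 and 1699 for the TRIM9 trigger alone, and 313 to 2973 and 1139 to 4279 with 1 library left out (fewer libraries separate more easily). Without GFP library 1 they were 1055 and 4279, without GFP library 2 2973 and 2624, without BCL2L11 library 2 653 and 1195, and without TRIM9 library 2 551 and 1373. Of 1357 values of 81 named genes, 3 reversed: BCL2L11 was −0.17 with the TRIM9 trigger alone, TRIM9 −0.28 with the BCL2L11 trigger alone, and MT-ND2 ranged between −0.05 without GFP library 1 and 0.93 without GFP library 2. With 2 GFP libraries, 1 library decides most small differences, and depth below an FPKM of 1 is unknown.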

Other observations

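Several further gene groups held 0 to 3 members outside GFP each. The shares over all genes tested were 1.76% above and 5.77% below, and no share given here rests on more than 3 genes. Of 22 targets of ATF4 and the integrated stress response, 1 lay above GFP (4.55%) and 2 below (9.09%), with a median of −0.08. The first was CHAC1, a glutathione-degrading enzyme, and the others were ASNS, asparagine synthetase, and GPT2, an alanine transaminase. Of 20 genes of the unfolded protein response, 1 lay below (5%): ERN1, the sensor kinase IRE1. Of 17 interferon response and nucleic acid sensing genes 1 lay below (5.88%). That gene, the exonuclease gene ISG20, had 1.91 and 1.73 FPKM in BCL2L11 trigger cells and 0.72 and 0.44 FPKM in TRIM9 trigger cells, against 2.82 and 3.02 FPKM in GFP cells. Of 6 NF-kB targets, 1 lay above (NFKB2, 16.7%), and of 23 hypoxia and glycolysis genes 2 lay above (8.7%: PFKFB4 and ANKRD37, at 0.37 and 0.27). Proteasome subunits had 1 above and 1 below of 31 (3.23% each), and snoRNA host genes 1 above and 1 below of 21 (4.76% each). Nonsense-mediated decay factors had 1 below of 14 (SMG6, 7.14%). Deadenylation, decapping and exosome genes had 3 below of 29 (10.3%: DCP1B, CNOT8 and PABPC4). No member lay outside GFP among 13 NRF2 targets, 4 genes of the metallothionein list, 17 BCL2 family genes, 24 cholesterol genes, 2 host genes of miR-221/222 and miR-218, or the tested members of the 4 cell type marker lists.

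Metallothionein MT2A, a metal-binding protein gene, had 51.8 and 25.3 FPKM in BCL2L11 trigger cells and 65.6 and 32.7 FPKM in TRIM9 trigger cells, against 116 and 25.1 FPKM in GFP cells, so that GFP library 1 was the highest and GFP library 2 the lowest. The HEK293 marker IRS4 had 9.46 and 65.4 FPKM in BCL2L11 trigger cells and 15.97 and 80.3 FPKM in TRIM9 trigger cells, against 8.61 and 65.9 FPKM in GFP cells, and separated the sets rather than the transfections.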
